A study of Mus musculus with 2 samples.

Results

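The Slc25 genes encode the mitochondrial carriers, and their open chromatin was described in 2 states of a mouse erythroid cell model. Members were all protein-coding genes of the annotation used whose symbol begins with Slc25a, which gave 44 of 22359 protein-coding genes on the numbered chromosomes, X and Y. The control state was G1E, a male line of strain 129 made of erythroid progenitors that lack Gata1 and were left untreated. The other state was G1E-ER4, the same kind of cell with Gata1 put back, after 24 h of differentiation in 10 nM beta-estradiol. Cell line, restored gene, estradiol and time in culture all differed at once between the states, so their effects cannot be told apart. For each state 1 sample was available, with 2 deposited lists of DNase-hypersensitive peaks, called here list 1 and list 2. Whether list 1 and list 2 stem from separate cultures is not stated. With 2 lists against 2 the smallest exact permutation p is 0.333, so the values below are a description, and no test between the states was made.

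Carriers of this family sit mostly in the inner mitochondrial membrane and exchange metabolites, nucleotides, cofactors and ions between the cytosol and the matrix. In erythroid cells the family is known for feeding heme synthesis: Slc25a37 (mitoferrin 1) brings in iron, and Slc25a38 brings in glycine, which is joined to succinyl-CoA in the opening step of the pathway. Slc25a28 (mitoferrin 2) is the more widely used iron carrier, and Slc25a39 and Slc25a40 carry glutathione. DNase cuts chromatin where nucleosomes are displaced, so a peak marks a promoter, an enhancer or another open site, and it does not measure transcription.

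Each list held 100000 peaks, and a peak's height was taken as its percentile within its own list, where 100 is the highest peak. A promoter value is the highest percentile among peaks within 1 kb of any annotated start, and 0 means that no peak was listed there. A percentile is a rank, so a gap of a few points near the top of a list can hide a larger gap in signal. Read depth is not given with the lists and is unknown. A promoter peak was listed for 58.8% of all genes in G1E-ER4 list 1, 66.4% in G1E-ER4 list 2, 63.3% in G1E list 1 and 58.9% in G1E list 2. Of the 11484 genes with a promoter peak in all 4 lists, G1E-ER4 list 1 gave the lowest of the 4 values for 53.7%. Marker genes were checked, and a promoter peak stood in all 4 lists for 10 of 12 erythroid genes, 4 of 6 megakaryocyte genes, 2 of 6 myeloid and mast cell genes, 1 of 6 lymphoid genes and 2 of 6 liver and neural genes, where the share over all genes was 51.4%. The erythroid exceptions were Alas2, at 75.5 in G1E-ER4 list 2 and listed at 0 in the rest, and Hbb-b1, at 92.9 and 90.9 in G1E-ER4 against 0 and 61.7 in G1E. Markers of other cell types with higher promoter values in both G1E-ER4 lists were Cebpa, Mpo, Rag1 and Gfap, 4 of 24, where the share over all genes was 6.97%, and their part in the results below was not tested.

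Sites at which the iron and glycine carriers differed between the states, picked after their values were seen, are printed here as the 300 bases centred on the summit, together with the upstream sequence of Slc25a24, the only member with a promoter peak in both G1E-ER4 lists and in neither G1E list. Sequences were read from the mm9 genome (NCBIM37), 5′ to 3′ on the strand of the named gene, and distances are from the outermost annotated start of that gene. Capitals mark matches to the GATA motif, for which the letters AGATAA counted on both strands, as did the letters AGATAG, the letters TGATAA and the letters TGATAG. Each of the 6 summits lay outside the annotated exons of the named gene, and the bases around a summit were not checked for exons. The Slc25a37 sites were chr14:69856291-69856590 (downstream of the gene), chr14:69885376-69885675 and chr14:69894350-69894649 (both intronic) and chr14:69906838-69907137 (upstream), all on the minus strand. The Slc25a38 sites were chr9:120007835-120008134 (upstream) and chr9:120049796-120050095 (downstream), and the bases before the Slc25a24 start were chr3:108925817-108926066, all on the plus strand.
Slc25a37 +46.7 kb, higher in G1E-ER4: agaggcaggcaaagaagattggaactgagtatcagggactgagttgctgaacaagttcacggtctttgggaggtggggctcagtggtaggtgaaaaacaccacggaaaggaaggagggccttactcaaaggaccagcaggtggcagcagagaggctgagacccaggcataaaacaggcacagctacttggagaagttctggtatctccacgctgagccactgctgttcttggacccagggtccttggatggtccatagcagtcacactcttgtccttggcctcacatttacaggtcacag
Slc25a37 +17.6 kb, higher in G1E-ER4: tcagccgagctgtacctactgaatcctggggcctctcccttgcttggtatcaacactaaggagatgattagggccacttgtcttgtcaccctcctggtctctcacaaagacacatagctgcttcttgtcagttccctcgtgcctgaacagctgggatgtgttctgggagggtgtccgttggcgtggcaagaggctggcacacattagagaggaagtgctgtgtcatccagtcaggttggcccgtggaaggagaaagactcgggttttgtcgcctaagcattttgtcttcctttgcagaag
Slc25a37 +8.7 kb, higher in G1E-ER4: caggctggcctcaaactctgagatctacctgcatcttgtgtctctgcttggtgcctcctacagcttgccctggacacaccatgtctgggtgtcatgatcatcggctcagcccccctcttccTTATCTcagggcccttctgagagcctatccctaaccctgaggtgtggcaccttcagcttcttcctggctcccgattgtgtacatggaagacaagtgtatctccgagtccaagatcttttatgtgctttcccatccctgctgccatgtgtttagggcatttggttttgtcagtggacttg
Slc25a37 -3.8 kb, higher in G1E: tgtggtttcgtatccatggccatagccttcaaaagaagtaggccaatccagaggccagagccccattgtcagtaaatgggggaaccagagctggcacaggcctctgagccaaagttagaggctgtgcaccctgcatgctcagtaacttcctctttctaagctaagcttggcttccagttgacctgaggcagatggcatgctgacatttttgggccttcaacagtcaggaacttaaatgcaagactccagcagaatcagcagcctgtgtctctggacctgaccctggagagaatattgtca
Slc25a38 -11.5 kb, higher in G1E-ER4: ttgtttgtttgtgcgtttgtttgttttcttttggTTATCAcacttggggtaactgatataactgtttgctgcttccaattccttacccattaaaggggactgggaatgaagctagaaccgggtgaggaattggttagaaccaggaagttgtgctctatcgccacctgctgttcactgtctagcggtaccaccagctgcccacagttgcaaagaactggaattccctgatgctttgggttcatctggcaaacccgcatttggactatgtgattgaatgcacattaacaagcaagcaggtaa
Slc25a38 +30.5 kb, higher in G1E-ER4: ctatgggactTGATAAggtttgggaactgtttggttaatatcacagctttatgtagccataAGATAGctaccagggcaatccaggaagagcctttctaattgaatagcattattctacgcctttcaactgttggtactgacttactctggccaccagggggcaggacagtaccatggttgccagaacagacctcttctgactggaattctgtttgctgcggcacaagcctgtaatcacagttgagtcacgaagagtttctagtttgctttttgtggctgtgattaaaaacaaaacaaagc
Slc25a24, 250 bases before the start: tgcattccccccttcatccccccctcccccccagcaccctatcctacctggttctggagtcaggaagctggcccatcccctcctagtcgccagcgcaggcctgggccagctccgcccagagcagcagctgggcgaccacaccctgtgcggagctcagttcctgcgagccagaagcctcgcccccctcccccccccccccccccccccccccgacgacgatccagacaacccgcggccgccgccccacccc
The GATA motif was matched 2 times in the Slc25a38 +30.5 kb window, 1 time in the Slc25a38 -11.5 kb window and 1 time in the Slc25a37 +8.7 kb window. The other windows and the Slc25a24 upstream bases held no match. Among all regions of the 4 lists, 40.7% of 300-base summit windows held at least 1 such match.

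The promoters of most members were open in both states. A promoter peak stood in all 4 lists for 33 of 44 members (75%), where the share over all genes was 51.4%. In those 33 members the median percentile was 93.3 and 95.0 for G1E-ER4, and 94.9 and 95.4 for G1E. The same medians over all genes with a peak in all 4 lists were 91.4, 94.6, 93.8 and 93.9. For 17 of 44 members the lowest of the 4 values was above 90, against 24.9% of all genes. The median difference between the states, G1E-ER4 minus G1E in the means of the lists, was -0.87 points over the 33 members and -0.66 points over all genes with a peak in all 4 lists. The difference was under 5 points for 27 of the 33 members, and for 73.5% of such genes overall. G1E-ER4 list 1 was the lowest of the 4 for 20 of the 33 members, against the 53.7% over all genes given above. Slc25a11, Slc25a23, Slc25a25, Slc25a27, Slc25a32, Slc25a40 and Slc25a46 have another gene's start within 1 kb of a start. A promoter peak there can belong to either gene.

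**Figure D1:**
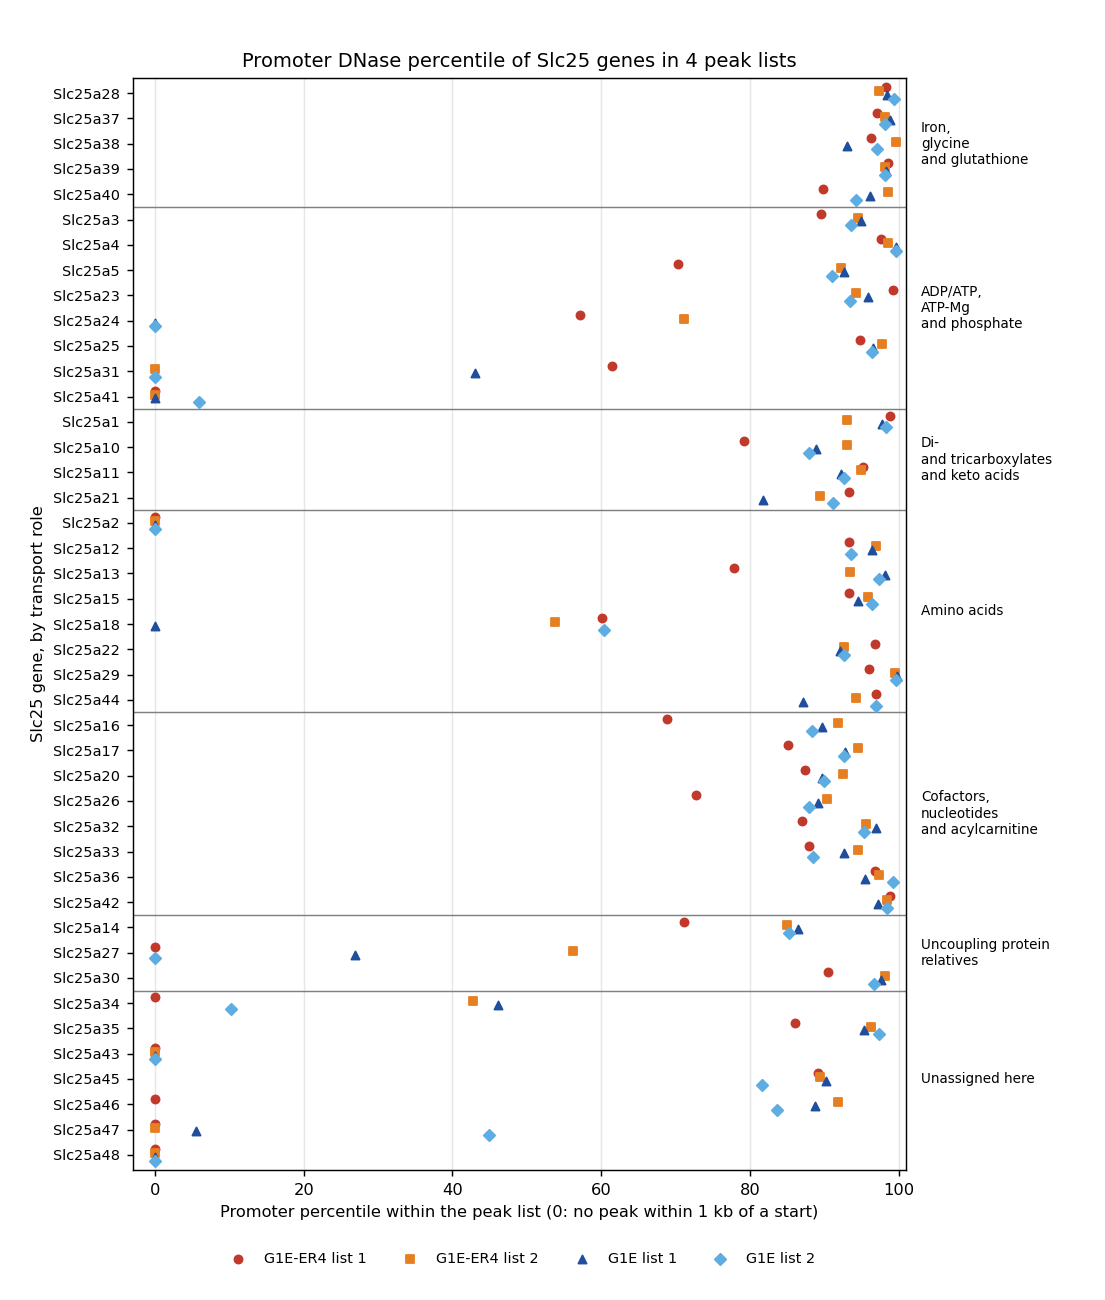
Promoter percentile within each peak list (x axis, 0 where no peak lies within 1 kb of a start) for the Slc25 genes reported here (y axis), grouped by the substrate carried, with 1 marker per list. The genes with a peak in all 4 lists lie at 68.8 or above, and the lowest of these values is a red circle of G1E-ER4 list 1, at Slc25a16.

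The 5 iron, glycine and glutathione carriers all had a promoter peak in all 4 lists, and on these percentiles none of them met the rule used here for a difference between the states. That rule asks both lists of a state to lie above both lists of the other and the means to differ by 5 points or more. Over all genes, 51.4% were open at the promoter throughout the 4 lists. The rule was met by 6.97% of all genes as higher in G1E-ER4 and by 3.94% as higher in G1E. Shares this low call few genes in any set of 5. On ranks among promoters only, given further on, Slc25a38 met the rule as higher in G1E-ER4 and Slc25a28 as higher in G1E. The Slc25a37 promoter stood at 97.1 and 98.1 in G1E-ER4 and at 98.8 and 98.2 in G1E. The Slc25a28 promoter stood at 98.3 and 97.4 in G1E-ER4 and at 98.4 and 99.4 in G1E. Both mitoferrin promoters thus ranked in the top few percent of each list, including in the cells without Gata1. Promoters open in all 4 lists rank high in general, with medians over all genes of 91.4 to 94.6. Ranked among promoters only, Slc25a37 stood at 82.7 and 86.6 in G1E-ER4 and at 93.2 and 85.8 in G1E. The Slc25a38 promoter was at 96.3 and 99.7 in G1E-ER4 and at 93.1 and 97.1 in G1E, and the ranges overlapped. The Slc25a39 promoter was at 98.6 and 98.1 against 98.3 and 98.1. The Slc25a40 promoter, shared with the start of Dbf4, was at 89.8 and 98.6 against 96.2 and 94.3. Both G1E values for Slc25a40 lay between the 2 G1E-ER4 values.

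The ADP/ATP, ATP-Mg and phosphate carriers had promoter peaks in all 4 lists for 5 of 8 members, against 51.4% over all genes. Those were Slc25a3 (the phosphate carrier), Slc25a4 and Slc25a5 (ADP/ATP carriers) and Slc25a23 and Slc25a25 (ATP-Mg/phosphate carriers), at 70.3 to 99.7. The lowest of these was Slc25a5 in G1E-ER4 list 1; without that list the range began at 91.0. Slc25a5 is known to have near-identical copies elsewhere in the genome, and their part in its values was not tested. Slc25a24, a calcium-regulated ATP-Mg/phosphate carrier, had promoter percentiles of 57.2 and 71.1 in G1E-ER4 and no promoter peak in either G1E list. No peak of a G1E list lay anywhere in the gene or 20 kb on each side, where the G1E-ER4 lists held 2 and 1. A promoter peak in both G1E-ER4 lists only was found for 1.19% of all genes and 1 of 44 members. In G1E-ER4 list 1 the peak lay more than 500 bp from the start, so with a 500 bp window the gene no longer had a promoter peak in both lists. The 10 Mb window centred on Slc25a24 held more peaks in G1E-ER4 than in G1E, with a log2 ratio of 0.70 between the states' mean counts. The part of that imbalance in the Slc25a24 values was not tested.

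The remaining members of that group were rarely open. Slc25a31, the ADP/ATP carrier known from testis, was at 61.5 and 0 in G1E-ER4 and at 43.1 and 0 in G1E, which is 1 list of each state. Slc25a41 was at 5.9 in G1E list 2 and at 0 in the other lists. Its neighbour Slc25a23, whose flank overlaps that of Slc25a41, was at 99.2 and 94.2 in G1E-ER4 and at 95.9 and 93.5 in G1E.

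The carriers of citric acid cycle intermediates were open throughout. Slc25a1 (citrate), Slc25a10 (dicarboxylates), Slc25a11 (oxoglutarate) and Slc25a21 (oxodicarboxylates) had a peak in all 4 lists, at 79.2 to 98.8. None of these 4 promoters differed by the rule, where the shares over all genes were 6.97% in G1E-ER4 and 3.94% in G1E. Among the amino acid carriers 6 of 8 had a peak in all 4 lists, at 77.9 to 99.8. For both groups the share of open promoters over all genes was 51.4%. Slc25a13, an aspartate/glutamate carrier of the malate-aspartate shuttle, was at 77.9 and 93.5 in G1E-ER4 and at 98.1 and 97.4 in G1E. Both G1E values were above both G1E-ER4 values, by 12 points in the means. Without G1E-ER4 list 1 the gap was 4.2 points, under the minimum, and the 10 Mb window centred on it had a log2 ratio of -0.55, on the same scale. Its paralogue Slc25a12 was at 93.3 and 96.9 in G1E-ER4 and at 96.4 and 93.6 in G1E, which overlapped. Slc25a18, a glutamate carrier, was at 60.1 and 53.8 in G1E-ER4 and at 0 and 60.4 in G1E. Slc25a2, an ornithine carrier, had no promoter peak in any list, while the ornithine carrier Slc25a15 stood at 93.3 to 96.4.

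The carriers of cofactors, nucleotides and acylcarnitine were the largest group, and 9 of 9 had a promoter peak in all 4 lists, at 68.8 or above. They included Slc25a16 and Slc25a42 (linked to coenzyme A), Slc25a17 (peroxisomal), Slc25a20 (carnitine and acylcarnitine), Slc25a26 (S-adenosylmethionine), Slc25a32 (folate and flavin) and Slc25a33 and Slc25a36 (pyrimidine nucleotides). The share of promoters open in all 4 lists was 51.4% over all genes. None of the 9 differed by the rule, where the shares over all genes were 6.97% in G1E-ER4 and 3.94% in G1E. The lowest, Slc25a16, was at 68.8 in G1E-ER4 list 1 and at 91.9 in G1E-ER4 list 2, with G1E at 89.7 and 88.4. Without G1E-ER4 list 1 no value in this group was below 87.9.

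Of the uncoupling protein relatives, Slc25a14 was at 71.2 and 85.0 in G1E-ER4 and at 86.4 and 85.3 in G1E. The groups did not overlap, but G1E-ER4 list 2 was only just below G1E, and without G1E-ER4 list 1 the gene did not meet the rule. Slc25a30 stood at 90.5 to 98.2 with overlapping groups. Slc25a27, whose start lies within 1 kb of that of Cyp39a1, was at 0 and 56.2 in G1E-ER4 and at 26.9 and 0 in G1E.

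The 7 members given no substrate group here were the least often open, with a promoter peak in all 4 lists for 2, Slc25a35 and Slc25a45. The share over all genes was 51.4%. Slc25a43 and Slc25a48 had no promoter peak in any list. Slc25a47, a carrier known from liver, had no promoter peak in G1E-ER4 and stood at 5.5 and 44.9 in G1E. A promoter peak in both G1E lists only was found for 0.845% of all genes and 1 of 44 members. Slc25a46, known for its place in the outer mitochondrial membrane, has a start within 1 kb of that of B930094E09Rik. Its promoter peak was at 0 and 91.8 in G1E-ER4 and at 88.7 and 83.7 in G1E. Only G1E-ER4 list 1 lacked that peak. Slc25a34 was at 0 and 42.8 in G1E-ER4 and at 46.1 and 10.2 in G1E.

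Counted over the family, the promoter percentile was higher in G1E-ER4 for 1 of 44 members, Slc25a24, where the share over all genes was 6.97%. It was higher in G1E for 3 of 44, Slc25a13, Slc25a14 and Slc25a47, where the share over all genes was 3.94%. Leaving out 1 list changed which members met the rule. Without G1E-ER4 list 1, G1E was higher for 1 member, Slc25a47, and G1E-ER4 for 3, Slc25a24, Slc25a27 and Slc25a46. The shares over all genes were then 4.29% and 18.6%. Without G1E-ER4 list 2, G1E was higher for 14 and G1E-ER4 for 3, where the shares over all genes were 19.5% and 11.6%. Slc25a24 and Slc25a47 kept their call with each list left out in turn. With a 500 bp window neither met the rule, and the Slc25a47 difference was -2.9 points in place of -25.2. With the strongest 50% of each list no promoter peak remained at Slc25a47. When each promoter was ranked among promoters only, which spreads out the top of the lists, 6 members were higher in G1E-ER4 and 5 in G1E, where the shares over all genes were 11.0% and 7.25%. Slc25a38 was then among the 6, at ranks 78.2 and 98.2 in G1E-ER4 against 55.3 and 77.5 in G1E, and Slc25a28 among the 5, at 89.8 and 81.3 against 90.2 and 95.2. Slc25a37 met the rule on neither scale.

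Promoter sequence was compared between members with a promoter peak in all 4 lists and members with one in 0 to 3 lists. Over the 300 bases from 250 before to 50 after the start, the ratio of observed to expected CpG had a median of 0.67 in the 33 members with a peak in all 4 lists and 0.51 in the other 11. The medians over all genes were 0.76 and 0.25. A ratio of 0.6 or more was found in 20 of the 33 and 2 of the 11, or 60.6% and 18.2%, against 71.7% and 17.2% of all genes. Among members with a peak in all 4 lists the ratio ran from 0.28 in Slc25a22 to 1.11 in Slc25a38. The GATA motif was found in 6 of the 33 (18.2%), against 18.4% of all promoters with a peak in all 4 lists, and in 2 of the 11 (18.2%), against 37.1% of the rest. A CACC motif (CCACACCC, CCGCACCC or CCCCACCC, both strands) was found in 4 of the 33 (12.1%) against 17.9%, and in 2 of the 11 (18.2%) against 13.0%. An E box (CAGCTG or CAGATG, both strands) was found in 8 of the 33 (24.2%) against 24.0%, and in 4 of the 11 (36.4%) against 31.8%. Neither the GATA nor the CACC motif occurred in the promoters of Slc25a37 and Slc25a38.

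Peaks were next followed beyond promoters, within each gene and 20 kb on each side. Overlapping peaks of the 4 lists were merged, which gave 188044 regions in all and 531 at members. The nearest annotated start belonged to a member for 308 of the 531. Of the 531, 144 (27.1%) held a peak from all 4 lists, against 15.7% of all regions, and 249 (46.9%) held a peak from 1 list, against 58.5%. Member regions lie at genes and include promoters by definition, while all regions include sites far from genes. The 2 sets are thus not alike, and regions at genes in general were not compared. The members with most regions in all 4 lists were Slc25a37 and Slc25a22, with 9 each. A member had a median of 7 to 9 peaks in a list, where the median over all genes was 5. Peaks were more numerous in both G1E-ER4 lists at 3 members, Slc25a17 (5 and 3 against 2 and 2), Slc25a20 (11 and 8 against 7 and 7) and Slc25a24, where the share over all genes was 12.2%. They were more numerous in both G1E lists at 5 members, Slc25a21, Slc25a23, Slc25a28, Slc25a29 and Slc25a47, where the share over all genes was 11.3%. Slc25a37 held 16 and 23 peaks in G1E-ER4 and 11 and 16 in G1E. Slc25a38 held 11 and 15 against 11 and 11. In the comparison of regions by percentile given further on, Slc25a20 had none higher in G1E-ER4. It had 2 higher in G1E, where 20.6% of all genes had as many. Slc25a17 and Slc25a24 each had 1 higher in G1E-ER4, where 37.2% of all genes had as many, and none higher in G1E.

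One-state regions, with a peak in both lists of a state and in neither list of the other, were as frequent at members as elsewhere. There were 13 for G1E-ER4, or 2.45% of member regions against 2.35% of all regions, and 22 for G1E, or 4.14% against 3.99%. They were 77 and 36 without G1E-ER4 list 1, and 95 and 47 without G1E-ER4 list 2. Without a G1E list they were 16 and 93 (list 1) and 24 and 77 (list 2). None of these 13 and 22 had a percentile of 75 or more in both lists of its state. Of the 13, 1 was a promoter, 1 was intronic and 11 lay outside the gene. Of the 22, 1 was a promoter, 7 were intronic and 14 lay outside. The nearest annotated start belonged to a member for 4 of the 13 and 14 of the 22, and another gene's start was nearer for the rest.

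Regions with a peak in both lists of at least 1 state were also compared by percentile, with the rule used for promoters. Of 225 such regions at members, 35 (15.6%) were higher in G1E-ER4, where the share over all such regions was 18.5%. In 58 (25.8%) the region was higher in G1E, where the share over all was 25.9%. Both shares were close to those of all regions. The balance followed the list left out, with 136 against 69 without G1E-ER4 list 1 and 145 against 94 without G1E-ER4 list 2. Without a G1E list it was 43 against 150 (list 1) and 48 against 139 (list 2). A state left with 1 list needs a peak in that list only, so more of its regions can meet the rule by construction. Of the 35, 16 were peaks of all 4 lists, and of the 58, 21 were.

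**Figure D2:**
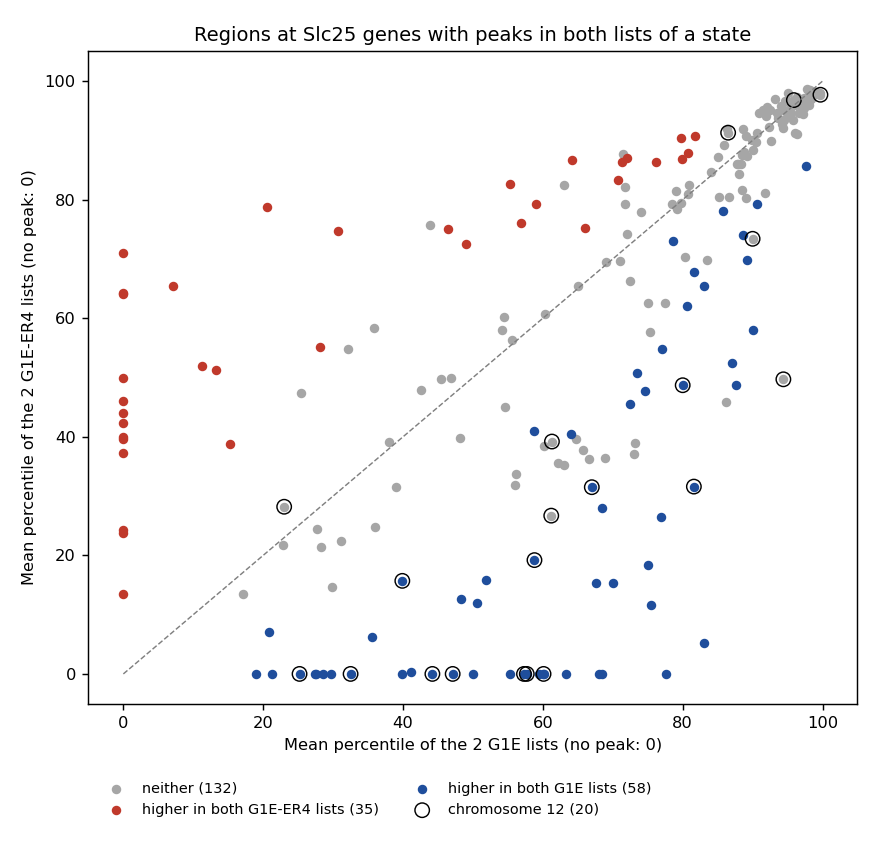
Mean percentile of each of the 225 regions in the 2 G1E-ER4 lists (y axis) against the 2 G1E lists (x axis), with 0 where a list has no peak and the dashed line at equal values. The 35 red regions are higher in G1E-ER4, the 58 blue ones in G1E, and black rings mark chromosome 12, which holds 12 of the 58 and none of the 35.

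Slc25a37 had the most regions that were higher in G1E-ER4. The gene (ENSMUSG00000034248.6, chr14:69859908-69903160, minus strand) had 14 regions in both lists of a state, of which 7 were higher in G1E-ER4 and 2 in G1E. Over all genes, 1.18% had as many regions higher in G1E-ER4, and 2.37% had as large an excess of such regions over regions higher in G1E. The 14 regions were also the most of any member. Shares of genes given here and below make no allowance for the number of regions at a gene, or for naming the highest member. The 10 Mb window around the gene was nearly balanced, with a log2 ratio of 0.04. With a flank of 10 kb the counts were 6 and 2, with the strongest 50% of each list 4 and 2, without G1E list 1 they were 6 and 8, and without G1E-ER4 list 1 they were 16 and 2.

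Along Slc25a37, 3 of the sites higher in G1E-ER4 were open in all 4 lists and are among the sequences printed above. The downstream site at +46.7 kb was at 87.7 and 86.2 in G1E-ER4 and at 77.4 and 82.3 in G1E. The intronic site at +17.6 kb was at 83.2 and 89.4 in G1E-ER4 and at 73.9 and 68.6 in G1E. The intronic site at +8.7 kb, whose window holds 1 GATA match, was at 86.3 and 87.0 in G1E-ER4 and at 48.1 and 80.2 in G1E. At +8.7 kb most of the gap came from G1E list 1. A further intronic site at +7.0 kb, whose window holds 2 GATA matches, was at 77.8 and 71.8 in G1E-ER4 and at 0 and 61.3 in G1E. The other 3 were peaks of G1E-ER4 only. The intronic site at +24.0 kb, whose window holds 1 GATA match, was at 10.2 and 69.1. Without a GATA match, the site at -16.2 kb was at 52.5 and 32.2, and the site at -9.3 kb was at 46.0 and 28.6. That last site lay 57 bp from the start of the neighbouring gene D930020E02Rik.

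Sites lower in G1E-ER4 also lay at Slc25a37, close to its start. At -3.8 kb the percentile was 0 and 10.4 in G1E-ER4 against 81.9 and 84.2 in G1E, a difference of -77.8 points. The intronic site at +6.1 kb was at 68.5 and 22.6 in G1E-ER4 and at 69.3 and 75.6 in G1E, with the gap mostly from G1E-ER4 list 2. The +6.1 kb site thus stood next to sites at +7.0 and +8.7 kb with the opposite difference. The promoter between the -3.8 kb and +6.1 kb sites did not differ, as given above.

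**Figure D3:**
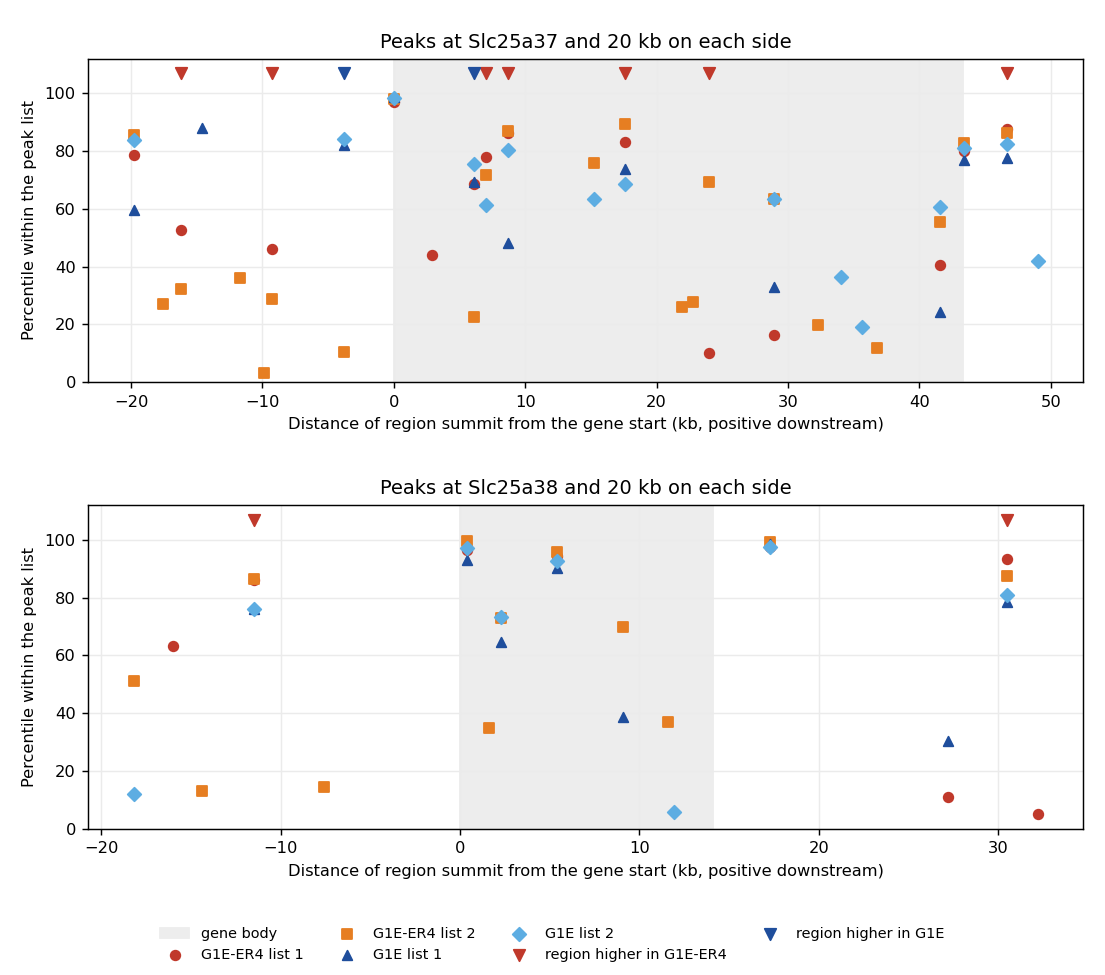
Percentile of each region within the 4 peak lists (y axis) against the distance of its summit from the gene start in kb (x axis, positive downstream) for Slc25a37 and Slc25a38, with the gene body shaded and no marker where a list has no peak. Triangles at the top mark the 7 regions at Slc25a37 and 2 at Slc25a38 that were higher in G1E-ER4 (red) and the 2 at Slc25a37 that were higher in G1E (blue).

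Slc25a38 (ENSMUSG00000032519.5, chr9:120019492-120033622, plus strand) had 6 regions in both lists of a state, of which 2 were higher in G1E-ER4 and none in G1E. The site at -11.5 kb was at 86.2 and 86.4 in G1E-ER4 and at 76.2 and 76.1 in G1E. The site at +30.5 kb was at 93.5 and 87.3 in G1E-ER4 and at 78.6 and 80.8 in G1E. Both sites were open in all 4 lists and their groups did not overlap, with differences of 10.1 and 10.7 points. Both had a nearer annotated start than that of Slc25a38, namely Ccr8 and Mobp, and both lay beyond 10 kb of the gene, so a 10 kb flank left none. The counts of regions higher in G1E-ER4 and in G1E were 9 and 0 without G1E-ER4 list 1, and 4 and 1 without G1E-ER4 list 2. They were 2 and 2 without G1E list 1, 2 and 1 without G1E list 2, and 2 and 1 with merged summit windows. Over all genes, 19.2% had as many regions higher in G1E-ER4. The 10 Mb window around Slc25a38, which runs past the end of the chromosome, had the largest excess of G1E-ER4 peaks of any member, with a log2 ratio of 1.02, and its part in these values was not tested.

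Of the other 3 carriers of this group, Slc25a28 had 5 and 8 peaks in G1E-ER4 against 10 and 10 in G1E. It had no region higher in G1E-ER4 and 2 higher in G1E, where 20.6% of all genes had as many. Slc25a39 had 1 region higher in each state, where 37.2% (G1E-ER4) and 43.1% (G1E) of all genes had as many. Its G1E region at -17.9 kb, with a nearer start at Grn, was listed at 0 in G1E-ER4 and at 15.2 and 64.7 in G1E. Slc25a40 had a single region, its promoter.

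Slc25a21, Slc25a29 and Slc25a47 were the 3 members on chromosome 12. Together they held 7 of the 22 regions found in G1E only and 12 of the 58 that were higher in G1E, and none of the 35 that were higher in G1E-ER4. Over all regions, chromosome 12 held 14.6%, 12.4% and 1.62% of these 3 kinds. The 12 were 60% of their 20 regions in both lists of a state, where 56.3% of all such regions on chromosome 12 were higher in G1E and 5.23% in G1E-ER4. The members' share was thus close to that of the chromosome. Over all genes, 1.87% had as many regions higher in G1E as Slc25a47, with 6, and 3.1% as many as Slc25a21, with 5. Slc25a47 had 8 and 9 peaks in G1E-ER4 against 19 and 20 in G1E, and its neighbour Slc25a29, a carrier of basic amino acids, had 3 and 11 against 17 and 16. These neighbours share 3 of their G1E-only regions. One of them, in an intron of Slc25a29 at +3.4 kb, was at 80.0 and 40.2 in G1E. Another, 2.9 kb before the Slc25a47 start, was at 61.9 and 52.8. The Slc25a29 promoter itself was at 96.0 and 99.5 in G1E-ER4 and at 99.8 and 99.6 in G1E. Slc25a21, a long gene, had 12 and 8 peaks against 17 and 18, with its G1E-only regions in introns at +12.8 kb (44.5 and 49.8) and +180.4 kb (67.2 and 21.3). The 10 Mb windows of these genes held far fewer peaks in G1E-ER4, with log2 ratios of -0.95 for Slc25a21 and -0.97 for the other two. The part of that broad imbalance in these sites was not tested.

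Members were then divided by the balance of all peaks in the surrounding 10 Mb, which counts the members' own peaks too, so the 2 measures are not independent. In the 3 members whose log2 ratio was above 0.4, namely Slc25a24, Slc25a38 and Slc25a44, 6 of 15 regions were higher in G1E-ER4 and 2 in G1E. Over all regions whose own 10 Mb window was above that limit the shares were 45.5% and 8.41%. In the 8 members below -0.4, which include the chromosome 12 genes and Slc25a5, Slc25a13, Slc25a16, Slc25a40 and Slc25a43, 1 of 30 was higher in G1E-ER4 and 14 in G1E, where the shares over all regions below that limit were 4.01% and 54.6%. In the 33 members between these limits, 28 of 180 (15.6%) were higher in G1E-ER4 and 42 (23.3%) in G1E, where the shares over all such regions were 16.7% and 25.4%. Slc25a37 belongs to the last set.

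**Figure D4:**
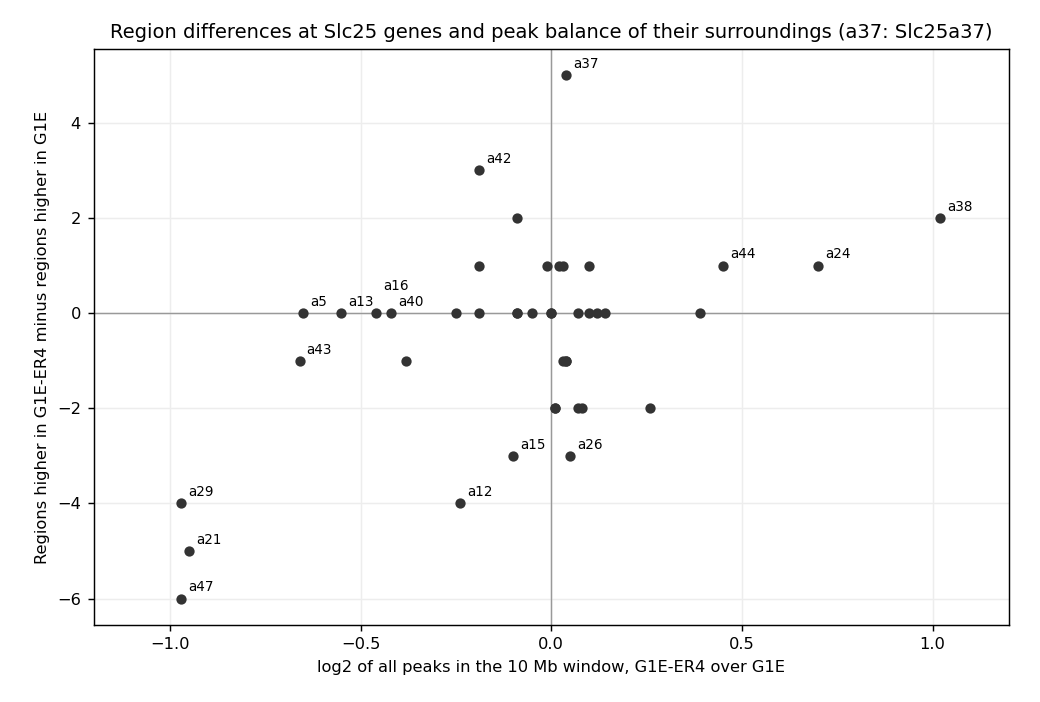
Regions higher in G1E-ER4 minus regions higher in G1E at each member reported here (y axis) against the log2 ratio of all peaks, G1E-ER4 over G1E, in the 10 Mb window around the member (x axis), with names shortened to their ending. Slc25a37 (a37) stands highest at 5 with a window of 0.04, and the chromosome 12 genes Slc25a21, Slc25a29 and Slc25a47 stand at -5, -4 and -6 with windows of -0.95, -0.97 and -0.97.

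Outside chromosome 12, Slc25a42, linked to coenzyme A, had 3 regions higher in G1E-ER4 (10.5% of all genes had as many) and none in G1E. Of these, the site at +41.9 kb was at 84.5 and 57.6 in G1E-ER4 and at 0 in both G1E lists, and that at +30.5 kb was at 88.5 and 78.0 against 76.8 and 64.8. A fainter G1E-ER4-only site at +48.3 kb was at 3.3 and 23.4. All 3 sites lay outside Slc25a42 and nearest to the start of Tmem161a. Slc25a34 had 4 regions higher in G1E-ER4 and 3 higher in G1E, where 5.85% and 10.4% of all genes had as many. Its G1E-ER4-only sites, at +20.6 kb (56.4 and 23.4) and +14.4 kb (18.4 and 28.9), lay downstream of the gene and nearest to the start of Fblim1, and its G1E-only site at -4.4 kb was at 7.4 and 30.7. Slc25a12 had 1 region higher in G1E-ER4, at -7.2 kb, with 71.8 and 16.1 against 0 in both G1E lists. It had 5 regions higher in G1E, of which the intronic sites at +40.4 kb (61.0 and 75.8) and +27.4 kb (8.4 and 34.2) were listed at 0 in G1E-ER4. Of all genes, 37.2% had as many regions higher in G1E-ER4 as Slc25a12, and 3.1% as many higher in G1E.

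Further pairs of sites seen in G1E alone lay at Slc25a15 and Slc25a45. At Slc25a15 the site at -15.8 kb, nearest to the start of Mrps31, was at 68.9 and 86.3 in G1E, and the intronic site at +2.6 kb was at 4.4 and 50.4. The first was the strongest G1E-only region of the family by its mean. At Slc25a45 the sites at +4.4 kb (59.4 and 67.1) and +8.2 kb (50.5 and 60.2) were listed at 0 in G1E-ER4. Between them, the intronic site at +6.4 kb was at 78.1 and 87.1 in G1E-ER4 and at 63.4 and 47.2 in G1E.

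Slc25a22, Slc25a23 and Slc25a31 each had 1 region seen in G1E-ER4 alone and 1 seen in G1E alone. At Slc25a22, a glutamate carrier, the first was at +25.8 kb (39.6 and 60.2) and the second at +18.7 kb (73.4 and 46.7), both nearest to the start of Pddc1. At Slc25a23 they were at +34.2 kb (62.7 and 65.5), a site shared with the flank of Slc25a41, and at -6.8 kb (54.7 and 64.1). The nearest starts to these were those of Khsrp and Crb3. At Slc25a31 they were at -18.8 kb (34.3 and 14.3) and at +29.7 kb (36.3 and 63.8), the latter nearest to the start of Hspa4l. The remaining members had at most 1 region confined to a state.

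The GATA motif was found in the summit windows of 18 of the 35 member regions higher in G1E-ER4 (51.4%) and in 24 of the 58 higher in G1E (41.4%). Over all regions of each kind the shares were 47.0% and 46.8%. The CACC motif was found in 7 of 35 (20.0%) and 8 of 58 (13.8%), with 14.6% and 14.5% over all regions of each kind. The E box was found in 21 of 35 (60.0%) and 20 of 58 (34.5%), with 40.8% and 42.1%. Such matches describe the letters in a window and do not show binding.

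Genes that work beside the iron and glycine carriers had open promoters in both states. Of 19 genes of mitochondrial iron-sulfur cluster and heme synthesis, 18 had a promoter peak in all 4 lists, where the share over all genes was 51.4%. None was higher in either state by the rule, where the shares over all genes were 6.97% in G1E-ER4 and 3.94% in G1E. Abcb10, which binds Slc25a37, was at 96.3 and 99.7 in G1E-ER4 and at 97.4 and 96.1 in G1E. Fech, which inserts iron into the porphyrin ring, was at 87.9 and 97.3 against 94.3 and 94.4. The exception was Alas2, the erythroid enzyme that uses glycine, with its values given above. Of 15 other carriers and channels of mitochondrial membranes that could be matched, such as Ucp2 and Vdac1, 13 had a promoter peak in all 4 lists, against the same 51.4%, and Ucp1 and Ucp3 had none. Sfxn5 was higher in G1E-ER4, at 71.9 and 88.7 against 68.4 and 70.2, and no gene of that list was higher in G1E.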

How the data were processed

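DNase-seq was run on 1 sample of each state. Per the labels' series design text, the authors mapped 20-base reads to mm9 with Bowtie, kept reads with several matches at their best place, converted files with SAMtools, computed an F-seq density and called peaks against a gamma distribution; no tool versions are given in these sources. The deposited value used is the F-seq density signal of each peak, with no stated scaling between lists, so only ranks within a list were used. The p-value and q-value columns hold -1 throughout.

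Peaks were joined to GENCODE vM1 protein-coding genes on mm9 with Python 3.11.15, numpy 2.4.6 and pandas 2.3.3. Promoters were 1000 bp on each side of any start, and regions were peaks sharing at least 1 bp. Each state has 2 lists, read as replicate lists of 1 sample. The counting functions were tested on simulated lists. The members and the gene lists were chosen with earlier results of these data known. The comparison of regions by percentile, the ranks among promoters and the 10 Mb sets with their shares over all regions were added after the data were seen. Values were given for the iron, glycine and glutathione carriers, members with promoter peaks in 1 to 3 lists, members called at promoters, members with 2 or more one-state regions and the 3 members with most regions in all lists; others named were chosen after their values were seen. Alternatives were promoter windows, flanks, merging, strength and leaving out each list. The values of 1 member that these rules name are not reported here. Amino acid sequences were not used here.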

Additional observations from a re-analysis of the deposited data

How the results depend on the processing

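The count of 33 members with a promoter peak in all 4 lists was 33 to 35 under every alternative run, including each list left out. Other counts moved more, given here as G1E-ER4 then G1E. Promoter peaks confined to a state (1 and 1) were 0 for G1E-ER4 with a 500 bp window, and 0 for G1E with a 2000 bp window or the strongest 50% of each list. With each list left out they were 1 to 2 and 1 to 3. Promoters ranking higher (1 and 3) were 0 for G1E-ER4 with 500 bp, 5 for G1E with 2000 bp, 6 and 5 by rank among promoters, and 3 and 7 with no minimum difference. With each list left out they were 2 to 4 and 1 to 14, where the shares over all genes were 8.25% to 18.6% and 4.29% to 19.5%. Regions confined to a state (13 and 22) were 2 and 8 with no flank, 6 for G1E-ER4 with a 10 kb flank, 20 and 46 with a 50 kb flank, 5 and 14 with the strongest 50% of each list, and 35 for G1E with merged summit windows. With each list left out they were 16 to 95 and 36 to 93, with the larger count in the state that lost a list. For G1E-ER4 that meant 77 and 36 without list 1 and 95 and 47 without list 2. Members with more peaks in a state (3 and 5) were 8 for G1E with a 50 kb flank and 9 for G1E with the strongest 50%. With each list left out they were 7 to 10 and 9 to 16. Regions ranking higher (35 and 58), an addition made after seeing the data, were 10 and 22 with no flank, 20 for G1E-ER4 with 10 kb, 64 and 97 with 50 kb, and 20 and 35 with the strongest 50%. With each list left out they were 43 to 145 and 69 to 150, again with the larger count in the state that lost a list. For G1E-ER4 that meant 136 and 69 without list 1 and 145 and 94 without list 2. Leaving out a list loosens the rule by its construction, since fewer lists must be in order. For the state left with 1 list, a peak in that list is then enough for a region to be compared. No paired analysis was possible because each state is 1 sample and no model was fitted. Depth is unknown, so a peak missing from a list may be a site below that list's limit of 100000 peaks, and lists of fixed length make peaks gained in some places push out peaks in others.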
